A study of Sus scrofa with 15 samples.

Results

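Progesterone synthesis in granulosa cells was followed through 4 genes over the first week of culture: STAR, CYP11A1, HSD3B1 and FDXR. The members were taken by name from the array annotation, as probe sets that carry one of these symbols and no other, and they are 4 of the 6765 genes the annotation named. The symbols are carried by 8 probe sets: 2 for STAR, 1 for CYP11A1, 2 for HSD3B1 and 3 for FDXR. Where a gene had more than 1, the probe set with the highest mean over the 15 arrays was used, and the others are given beside it.

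Progesterone is made from cholesterol. The steroidogenic acute regulatory protein, STAR, moves cholesterol to the inner mitochondrial membrane. There the side-chain cleavage enzyme CYP11A1 turns it into pregnenolone, with electrons that come from NADPH through ferredoxin reductase, FDXR, and the small iron-sulfur protein ferredoxin, FDX1. HSD3B1, a 3-beta-hydroxysteroid dehydrogenase, then makes progesterone from pregnenolone. In the ovary this pathway is low in granulosa cells of growing follicles and becomes strong when the cells luteinize after the surge of luteinizing hormone.

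The arrays measured total RNA of pig (Sus scrofa) granulosa cells, the cells that line the ovarian follicle and surround the egg, on Affymetrix porcine genome arrays. The day 0 group holds cells as taken from follicles. Those of days 1, 2 and 4 are labelled as dedifferentiating in culture, and the day 7 group as dedifferentiated cells (DFOG) grown to semiconfluence. Every group had 3 arrays, labelled biological replicates. Breed, age, follicle size and culture medium are not given in the sources used here, nor whether replicates came from separate animals, so the p-values reflect only how these arrays vary, which may be technical variation. The precision of every value is limited by how few arrays there are.

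Levels are log2 values and changes are differences of log2 levels, so that 1 unit is a doubling. Changes were tested with limma over 23999 probe sets, and a gene is said to have risen or fallen only where the adjusted p was under 0.05 and the change at least 1. Errors are the SD over 3 arrays for levels and the standard error (SE) of the fit for changes. Array medians were 6.40 to 6.55 and lower quartiles 4.41 to 4.68, and levels are set against that range as a guide to background. As a sign of RNA quality or sample preparation, the 3′ probe set of actin exceeded the 5′ one by 0.97 to 1.68 in the day 0 arrays. In the cultured arrays it did so by 0.02 to 1.01, apart from day 4 replicate 2 at 2.12. The replicate 1 arrays stood apart, with the lowest excess of their day on every day, at 0.97 on day 0 and 0.02 to 0.19 in culture, against 0.57 or more on all other arrays. This excess thus moved with day 0 against most later arrays, and its part in the changes was not tested. The same excess in the control dap was 1.72 to 1.77 on day 0 and 1.01 to 1.63 in culture, apart from 3.52 on day 4 replicate 2. RNA quality and sample preparation were not told apart. All comparisons with day 0 share the same 3 arrays.

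The 11 granulosa markers were all measured, and on no day did any of them lie at or under the lower quartile on all 3 arrays. Some came close, as INHBB on day 7, at 4.50, 4.19 and 4.75 against quartiles of 4.52, 4.54 and 4.53. INHA, the inhibin alpha subunit, had a day 0 level of 14.26 ± 0.20 (SD, n = 3) and FST, follistatin, 13.32 ± 0.20. Other markers were low in fresh cells, with CYP19A1 at 5.26 ± 0.32 and FOXL2, named after its values were seen, at 5.89 ± 0.14. The summed level of these markers, as log2 of the sum, lay between 15.57 and 15.92 in fresh cells and between 13.26 and 13.40 on day 7. On day 7 this sum was carried mostly by GJA1, named after its values were seen, with means of 13.46 on day 0 and 13.13 on day 7. The day 7 means of INHA and FST were 7.05 and 8.21. In RNA from whole cultures, fewer cells of a type and less RNA per cell cannot be told apart.

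**Figure D1:**
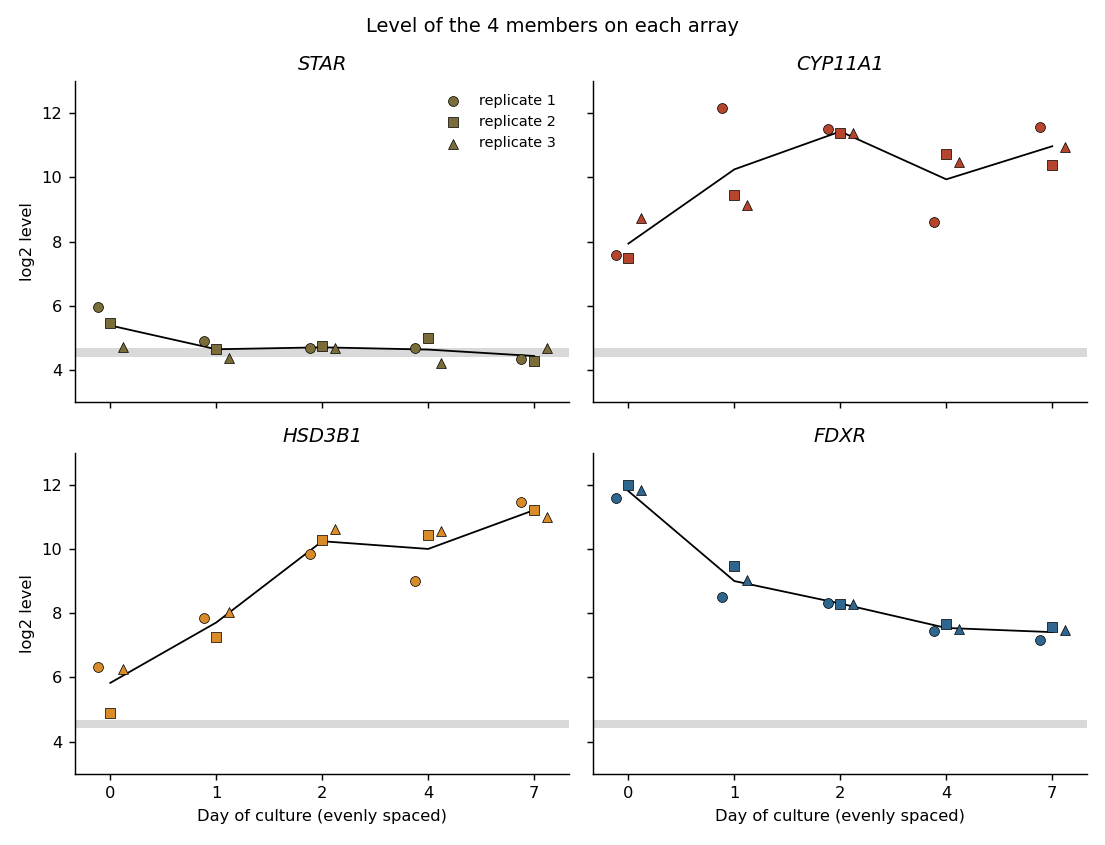
Each panel plots the log2 level of a member (vertical axis) on the 15 arrays by day of culture (horizontal axis, days evenly spaced), with marker shapes for the replicate number, a line through the day means and a grey band for the range of the arrays' lower quartiles (4.41 to 4.68). STAR lies at 4.23 to 5.98 throughout, HSD3B1 climbs from day 0 levels of 4.89 to 6.32 up to 10.98 to 11.45 on day 7, and FDXR goes from 11.58 to 11.98 down to 7.18 to 7.57.

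The members went 3 ways over the week. HSD3B1 rose 41.7-fold by day 7 and CYP11A1 8.16-fold, and FDXR fell 21.0-fold. STAR, low on all arrays in the probe set used, was not called there on any day. Its other probe set was called lower on days 1, 4 and 7. Over the time course the F test called CYP11A1, HSD3B1 and FDXR and not STAR (adjusted p = 0.00969, 1.75e-06, 1.25e-08 and 0.0896), where 23.6% of all probe sets were called. Against day 0, the same 3 of 4 members passed on each of days 1, 2, 4 and 7, where 12.5%, 13.8%, 15.9% and 16.6% of all probe sets did. The members were chosen with these changes known, so nothing is read from that count.

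STAR, the cholesterol importer (Entrez gene 396597), was read by 2 probe sets. In the one used, its level was 5.98, 5.48 and 4.72 on the day 0 arrays (replicates 1, 2 and 3) and 4.92, 4.65 and 4.38 on day 1. It was 4.70, 4.76 and 4.68 on day 2, 4.69, 5.00 and 4.23 on day 4, and 4.34, 4.27 and 4.70 on day 7. Day 0 replicates 1 and 2 were the highest of the 15 arrays, while replicate 3 of day 0 lay among the cultured arrays. The level was above its array's lower quartile on 3, 2, 3, 2 and 1 of the 3 arrays of days 0, 1, 2, 4 and 7.

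The change of STAR from day 0 was -0.75 on day 1, -0.68 on day 2, -0.75 on day 4 and -0.96 ± 0.28 (SE) on day 7, and it was called on none of them (adjusted p = 0.0662, 0.0929, 0.0546 and 0.0169). On day 7 the adjusted p passed and the size did not, with a 95% interval of -1.55 to -0.36. The cultured days differed from one another by 0.28 or less, in all 6 pairs of days not past the test. Without day 0 replicate 3 the changes were -1.08, -1.01, -1.09 and -1.29 and all were called, and without day 7 replicate 3 the day 7 change was -1.09 and called. These low levels limit how far a change of STAR could be measured.

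The other STAR probe set showed a wider split among the fresh cells. It read 7.55, 6.27 and 3.91 on the 3 day 0 arrays and 3.65 to 4.59 on the 12 cultured arrays. Replicate 3 of day 0 thus read like cultured cells in both probe sets, and replicates 1 and 2 stood above every cultured array. All 12 cultured levels lay under the lower quartile of their arrays. The change on day 7 was -2.12 ± 0.59 (adjusted p = 0.0142), called, and the groups overlapped at replicate 3 of day 0. The same probe set was called on days 1 and 4 (-2.0 and -2.19) and not on day 2 (-1.52, adjusted p = 0.0783).

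CYP11A1, the side-chain cleavage enzyme (Entrez gene 403329), had a single probe set. Its level was 7.58, 7.48 and 8.75 on day 0 and 12.15, 9.44 and 9.15 on day 1. On day 2 it was 11.51, 11.39 and 11.38, on day 4 8.62, 10.72 and 10.47, and on day 7 11.58, 10.38 and 10.94. Every array of days 1, 2 and 7 lay above all 3 of day 0, and day 4 replicate 1, at 8.62, fell under day 0 replicate 3. Replicate 1 read highest of its day on days 1, 2 and 7 and lowest on day 4. The same arrays had the lowest actin excess of their day, and the part of RNA quality or sample preparation in these levels was not tested.

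CYP11A1 rose by 2.31 ± 0.71 on day 1, 3.49 on day 2, 2.00 on day 4 and 3.03 on day 7 (adjusted p = 0.0272, 0.00203, 0.0456 and 0.00452). The order of the day means was day 2 (11.43), day 7 (10.97), day 1 (10.25), day 4 (9.94) and day 0 (7.94). No neighbours among the 4 cultured days passed the test, and the step from day 2 to day 4, of -1.49 with groups that did not overlap, had an adjusted p of 0.375. The calls on days 1 and 4 depended on which arrays were kept. On day 1 the call was lost when day 1 replicate 1 (leaving 1.36), day 0 replicate 1 (2.13) or day 0 replicate 2 (2.08) was dropped. Its size without all 5 arrays numbered replicate 1 was 1.18, called (adjusted p = 0.0223). The day 4 rise lost its call when any 1 of 9 arrays was dropped (day 0 replicates 1 and 2, all 3 of day 2, replicates 2 and 3 of days 4 and 7, with 1.61 to 2.00), after cyclic loess (1.74) and after a second quantile normalization (1.86). Without replicate 1 the rises on days 2, 4 and 7 were 3.27, 2.48 and 2.54, all called. In that fit the steps from day 1 to day 2 (2.09) and from day 1 to day 7 (1.36) were called as well, which they were not over all arrays.

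HSD3B1, which makes progesterone (Entrez gene 445539), was read by 2 probe sets. The one used has a suffix (_x_at) that marks probes that can also read related sequences. Its level was 6.32, 4.89 and 6.27 on day 0, 7.84, 7.27 and 8.03 on day 1, and 9.85, 10.27 and 10.61 on day 2. On day 4 it was 9.01, 10.42 and 10.56, and on day 7 11.45, 11.20 and 10.98. No array of a cultured day overlapped with day 0, and no array of day 7 with day 1, 2 or 4. As for CYP11A1, replicate 1 was the lowest array of day 4.

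HSD3B1 rose by 1.89 ± 0.43 on day 1, 4.42 on day 2, 4.17 on day 4 and 5.38 on day 7 (adjusted p = 0.00478, 4.15e-06, 5.09e-06 and 4.10e-07). Within culture the steps from day 1 to day 2, of 2.53 (adjusted p = 0.00376), from day 1 to day 4, of 2.28 (0.00238), and from day 1 to day 7, of 3.49 (6.73e-05), were called. Days 2, 4 and 7 were not told apart, with day 4 minus day 2 at -0.25 and day 7 minus day 2 at 0.97 (adjusted p = 0.909 and 0.237). Day 7 minus day 4 was 1.21, with a 95% interval of 0.29 to 2.13 before adjustment and an adjusted p of 0.790. The other probe set, which lacks that suffix, rose by 1.40, 3.55, 3.14 and 4.57 on the 4 days, all called. Its own day 7 level was 10.69, 10.59 and 10.19, against 6.41, 5.51 and 5.85 on day 0.

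FDXR, the reductase that starts the mitochondrial P450 electron chain (Entrez gene 100512919), was read by 3 probe sets. In the one used, its level was 11.58, 11.98 and 11.85 on day 0, 8.51, 9.46 and 9.04 on day 1, and 8.31, 8.29 and 8.29 on day 2. It was 7.45, 7.66 and 7.51 on day 4 and 7.18, 7.57 and 7.48 on day 7. Each sampled day lay under the day before it with no overlap, up to day 4, and days 4 and 7 overlapped.

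FDXR fell by 2.80 ± 0.20 on day 1, 3.50 on day 2, 4.27 on day 4 and 4.39 on day 7 (adjusted p = 5.49e-07, 4.28e-08, 5.45e-09 and 3.81e-09). The single steps from day 1 to 2 and from day 2 to 4, of -0.70 and -0.76, were under the minimum size (adjusted p = 0.0589 and 0.0510). The changes from day 1 to day 4 (-1.46, adjusted p = 2.38e-04) and from day 1 to day 7 (-1.59, 9.09e-05) were called. The other probe sets changed by -2.89 and -3.21 on day 7, both called. From day 1 to day 7 the first of them, at -0.91, was not called. None of the alternatives or single arrays left out ended the call of FDXR or of HSD3B1 against day 0.

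**Figure D2:**
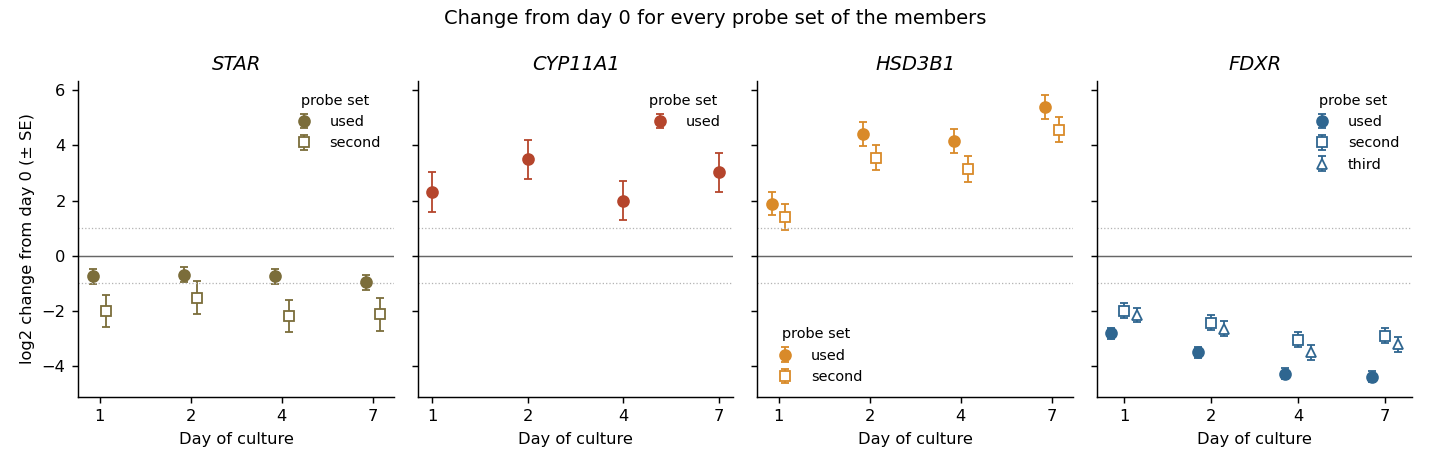
Each panel plots the log2 change from day 0 (vertical axis, ± SE) by day of culture for every probe set of a member, with filled symbols for the probe set used, open ones for the others and dotted lines at the minimum change of 1. The changes from day 0 have the same sign in all probe sets of a gene, and on day 7 they were -0.96 and -2.12 for STAR and -4.39, -2.89 and -3.21 for FDXR.

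From day to day, the share of probe sets called was 3.04% from day 1 to day 2, where HSD3B1 was the 1 member called, and 2.53% from day 2 to day 4, where no member was. From day 4 to day 7 it was 0.0583%, or 14 probe sets, with no member among them, and 41 probe sets with the replicate number as a block. From day 1 to day 7 HSD3B1 and FDXR were called (9.03% of all), from day 1 to day 4 the same pair (7.66%), and from day 2 to day 7 no member (4.73%). Calls in 1 direction were 6.47% higher and 6.03% lower on day 1 against day 0, 7.68% and 6.09% on day 2, 9.29% and 6.59% on day 4, and 9.36% and 7.28% on day 7. Groups did not overlap with day 0 for 37.0%, 37.3%, 42.4% and 46.5% of all probe sets on days 1, 2, 4 and 7. Among the members they did not overlap for 3, 3, 2 and 4 of the 4.

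The enzymes were set against the importer and the reductase through the difference between 2 members on the same array. A level of one probe set cannot be compared with that of another, so only the change of such a difference is read. The 3 arrays of day 0 were compared with the 12 cultured arrays in a two-sided exact permutation test over the 455 ways to choose 3 of 15, with p adjusted over the 6 pairs. The test pools the cultured days, which differed from one another, and treats the 12 arrays as independent. Arrays with the same replicate number were correlated across most days. With the replicate number as a block, each pair that passed had an adjusted p of 0.00960 in this permutation test. The pairs were chosen with the changes known, so their p values are given as description and not as support. For a single day against day 0 the exact permutation test cannot go below p = 0.10.

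HSD3B1 and FDXR moved in opposite directions. Their difference was -7.09 to -5.26 on day 0 and -2.19 to 4.26 in culture, a shift of 7.71 (exact p = 0.00220, adjusted p = 0.00330). By day it was -1.29 ± 0.80 (SD, n = 3) on day 1, 1.94 ± 0.39 on day 2, 2.46 ± 0.79 on day 4 and 3.80 ± 0.41 on day 7, from -5.98 ± 0.97 on day 0. CYP11A1 minus FDXR shifted by 6.45 (the same p values), from -3.87 on day 0 to 1.25 on day 1, 3.13 on day 2, 2.40 on day 4 and 3.56 on day 7. In both pairs no cultured array overlapped with day 0, and 0.00220 is the smallest p this test can give. HSD3B1 and FDXR each already stood apart from day 0 on every cultured array, in opposite directions. The p of their difference was thus fixed in advance and adds nothing to their separate changes.

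STAR lay close to the lower quartile of its arrays in culture, so its differences from the other members are given as measured, and their sizes are not ranked against those of FDXR. STAR minus HSD3B1 shifted by -4.75 and STAR minus CYP11A1 by -3.49 (exact p = 0.00220 and 0.00440, adjusted p = 0.00330 and 0.00527). On day 7 these shifts were -6.34 and -3.99. STAR minus FDXR shifted the other way, by 2.96 (exact p = 0.00220, adjusted p = 0.00330).

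The 2 enzymes did not differ past the test from each other. CYP11A1 minus HSD3B1 was 2.11 ± 0.74 on day 0 and 0.85 ± 1.39 in culture, a shift of -1.26 (exact p = 0.165, also after adjustment). By day the shift from day 0 was 0.42, -0.93, -2.17 and -2.35, so that the difference was lower on days 4 and 7, with an exact p of 0.10, the smallest possible, on each of these days. Day 1 replicate 1 had the highest difference of all arrays, 4.31. Without it the shift was -1.57 (adjusted p = 0.0165), and without the 5 replicate 1 arrays -1.97 (adjusted p = 0.0222), both past the test.

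**Figure D3:**
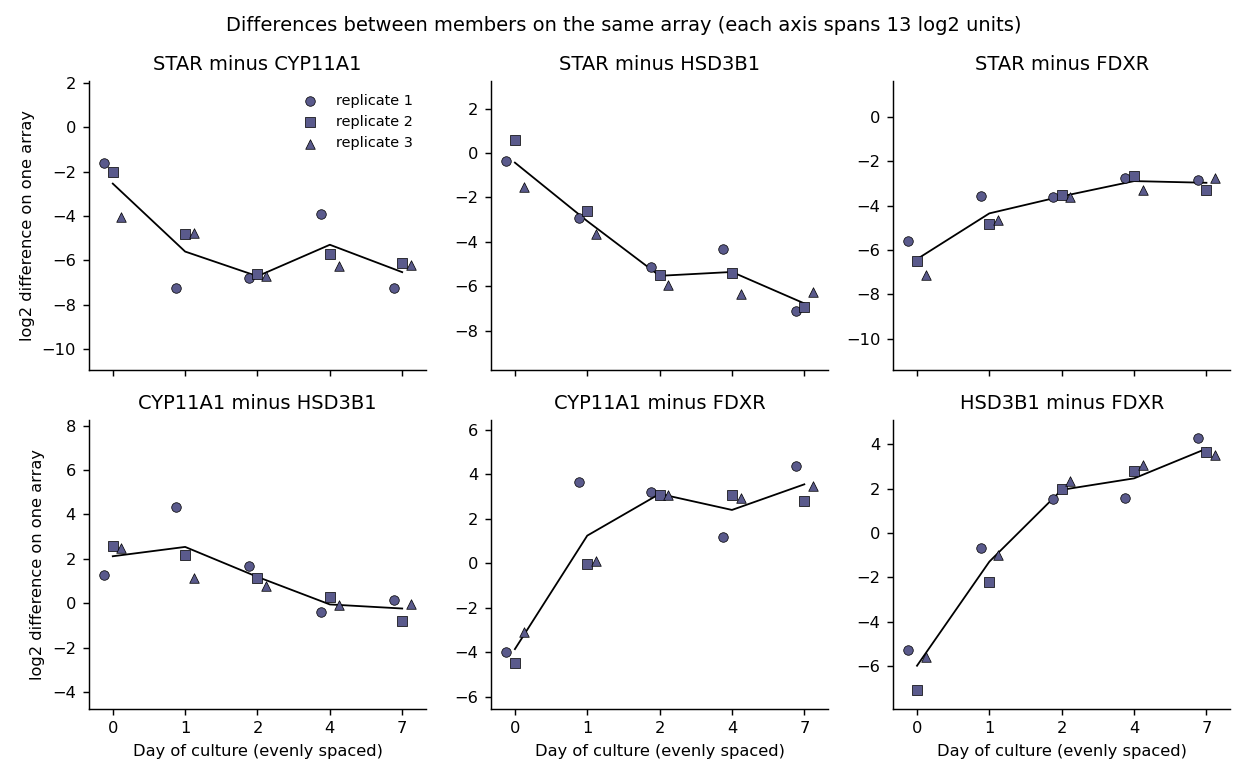
Each panel plots the log2 difference between 2 members on the same array (vertical axis, each spanning 13 log2 units) by day of culture, with marker shapes for the replicate number and a line through the day means. The differences of CYP11A1 and HSD3B1 from FDXR go from -3.87 and -5.98 on day 0 to 3.56 and 3.80 on day 7, while CYP11A1 minus HSD3B1 goes from 2.11 to -0.24.

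Electron carriers and cofactor enzymes, FDXR among them, were examined in a list of 18 genes for mitochondrial electron supply and P450 partners. The list had 13 genes measured. On day 1 it had 4 lower and 1 higher (median -0.17), and on day 7 5 lower and 4 higher (median 0.38, against -0.05 over all probe sets). The lower genes on day 7 included FDX1 and POR, which pass electrons to P450 enzymes, while CYB5B, a cytochrome b5, was among the 4 higher. FDX1, the ferredoxin that FDXR reduces, read 11.98, 12.07 and 11.82 on day 0 and 9.82, 9.73 and 9.69 on day 7. It differed by -0.90 on day 1, under the minimum size, and fell by 2.21 ± 0.16 by day 7 (adjusted p = 1.98e-07). Its second probe set fell by 2.59.

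POR, the reductase that feeds P450 enzymes of the endoplasmic reticulum, went from 12.07, 11.50 and 10.63 to 8.39, 8.31 and 8.40 and fell by 3.03 ± 0.37 (adjusted p = 2.73e-05). CYB5A, a cytochrome b5 that aids microsomal steroid enzymes, fell by 1.41 ± 0.19. NNT, the mitochondrial transhydrogenase that makes NADPH, fell by 1.04 ± 0.37 (adjusted p = 0.0454). CYB5A and NNT are named because they complete the fallen genes, after their values were seen. The NNT call was lost when any 1 of 10 arrays was dropped and in the fit of the 6 arrays alone (-1.04 to -0.76). Its size moved most without day 7 replicate 3 (-0.76) and day 0 replicate 1 (-0.86). Of the 4 that rose, MTHFD2, a mitochondrial folate enzyme that yields reduced cofactor, rose by 1.83 ± 0.21. The others, named after their values were seen, were PGD, CYB5B and CYB5R1, at 1.17 to 1.19.

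Iron-sulfur clusters and heme are built into FDX1 and CYP11A1, and 14 of 24 genes listed for their synthesis were measured. On day 1 and on day 7 2 were lower and 0 higher (median 0.17 on day 7). ISCA2, an assembly factor for mitochondrial iron-sulfur proteins, went from 9.03 ± 0.09 to 7.57 ± 0.09 and fell by 1.46 ± 0.15 (adjusted p = 5.11e-06). ALAS1, the first enzyme of heme synthesis, fell by 1.30 ± 0.38 (adjusted p = 0.0184) from day 0 arrays of 11.08, 10.67 and 8.91. Replicate 3 of day 0 lay within the day 7 range, and the call of ALAS1 was lost when day 0 replicate 1 (-0.87) or replicate 2 (-1.07) was dropped, or day 7 replicate 2 (-1.26) or 3 (-1.25). It was also lost in the 6 arrays alone, without the replicate 1 arrays (-0.96) and over the mean of its probe sets (-1.21). BOLA3, another assembly factor, and UROD, a later heme enzyme, differed by 0.97 ± 0.13 and 0.96 ± 0.15, just under the minimum size.

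**Figure D4:**
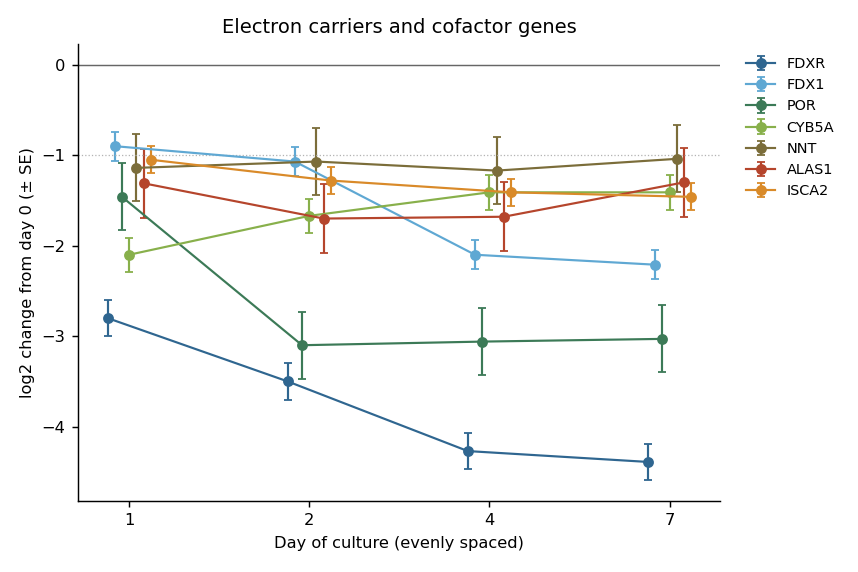
The log2 change from day 0 (vertical axis, ± SE) is plotted by day of culture for FDXR and 6 other genes of electron supply and cofactor synthesis, with a dotted line at the minimum change of -1. FDXR and POR lie lowest on day 7, at -4.39 and -3.03, and FDX1 lies at -0.90 on day 1, -1.07 on day 2 and -2.10 on day 4.

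Mitochondrial P450 enzymes other than CYP11A1 also take electrons from FDX1, and 3 of them were measured. CYP27A1, the sterol 27-hydroxylase, differed from day 0 by -1.06 on day 1 and 1.09 ± 0.41 on day 7 (adjusted p = 0.0584), and rose by 2.15 from day 1 to day 7. With the replicate number as a block the day 7 change of CYP27A1 was called (adjusted p = 0.00913), as in 7 other alternatives, among them the 6 arrays alone (0.0289). CYP24A1 and CYP27B1, hydroxylases of vitamin D, differed by -0.59 and -0.28 on day 7, not called. In its other probe sets CYP27A1 rose by 1.35 on day 7 in 1 (adjusted p = 0.0200) and differed by -0.24 in another, not called. By the probe sets used, the 1 of the 4 measured genes of that list that rose on day 7 was CYP11A1, and the median was 0.40.

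The delivery of cholesterol to mitochondria was listed with 19 genes, 14 of them measured. On day 1, 1 was higher and 0 lower, and on day 7, 3 were higher and 1 lower (median 0.23), with STAR among the 10 not called. TSPO, an outer mitochondrial membrane protein, was lowest on day 1, at 7.47 to 7.68, and highest on day 7, at 9.65 to 10.03, a rise of 1.31 ± 0.25 over day 0. Without the replicate 1 arrays the rise of TSPO was 0.96 and was not called. ACSL4, an acyl-CoA ligase of steroid-making cells, rose by 1.94 ± 0.14. NPC1 and NPC2 pass cholesterol out of lysosomes. NPC1 fell by 1.52 ± 0.21, and NPC2 rose by 2.69 ± 0.34 in the probe set used but differed by -0.36 and 0.18 in its other probe sets.

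A list of 17 genes for progesterone synthesis and metabolism, which also held enzymes that act on cortisone and cortisol, had 9 measured. On day 7, 2 were higher, both of them members, and 1 was lower. Among the 7 others the median was -0.70. HSD11B1, which activates cortisone, fell by 1.39 ± 0.31, and HSD11B2, which inactivates cortisol, differed by -0.91 ± 0.18. On day 1 the list had 2 higher and 2 lower (median -0.40).

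The next steps towards androgens and estrogens were in a list of 5, with 4 measured, 1 lower and 0 higher on day 7 (median 0.06) and 1 of each on day 1. CYP17A1, which turns progestins into androgens and marks theca cells, read 4.77 to 5.55 over the 15 arrays and differed by 0.30 ± 0.19. HSD17B1, which makes estradiol, fell by 7.89 ± 0.33. HSD17B7, with roles in estrogen and cholesterol synthesis, rose by 2.25 on day 1 and stood at 0.95 on day 7, under the minimum size. CYP19A1, aromatase, differed by -0.18 ± 0.19, from a probe set that near-identical pig paralogs could also bind. It read 4.60 to 5.61 over the 15 arrays, and such low levels limit how far a change could be measured. Its other probe sets differed by 0.80, -0.13 and -0.16, not called.

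Among regulators of steroid genes 24 of 29 were measured, with 1 higher and 3 lower on day 1 and 1 higher and 5 lower on day 7 (median -0.13). NR5A2, a nuclear receptor that binds promoters of CYP11A1 and HSD3B genes, went from 12.20 to 13.04 on day 0 down to 7.66 to 8.26 on day 7 and fell by 4.79 ± 0.33. Its relative NR5A1 differed by -0.95 ± 0.18, under the minimum size, and was called after a second quantile normalization (-1.07) and cyclic loess (-1.03). The forkhead factor FOXO1 fell by 2.88 ± 0.33. The estrogen receptor ESR1 changed by -1.94 ± 0.50 and GATA6, a zinc finger factor of steroid genes, by -1.51 ± 0.19. The remaining calls on day 7, named after their values were seen, were the progesterone receptor PGR (-1.13 ± 0.26) and the transcription factor CEBPB (1.35 ± 0.43).

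Of 23 genes of gonadotropin and cAMP signaling, which drive this pathway in vivo, 12 were measured, with 1 higher and 1 lower on day 7 (median -0.05) and 1 and 2 on day 1. LHCGR, the receptor for luteinizing hormone, did not fall steadily. Its fresh-cell levels of 11.24 to 12.49 were followed by 8.71 to 9.32 after 1 day, then by 10.11 to 11.11 on day 2. Day 4 arrays read 7.32 to 7.98 and those of day 7 5.80 to 6.02, and by day 7 it fell by 6.15 ± 0.34. SGK1, a kinase induced by serum and by gonadotropins, rose by 4.66 ± 0.27. FSHR, the receptor for follicle-stimulating hormone, differed by -0.90 ± 0.42 and PRKAR2A, a regulatory subunit of protein kinase A, by 1.11 ± 0.47 (adjusted p = 0.0934, and 0.0348 with the replicate number as a block, where it was called, as in the 6 arrays alone).

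Luteal cells make much progesterone, and 13 of 19 genes listed for them were measured. Those called were 3 higher and 3 lower on day 7 (median 0.07), and 2 and 4 on day 1. The higher ones were CAV1, a caveolar protein, at 5.43 ± 0.43, TIMP1, a protease inhibitor, at 3.28 ± 0.16, and, named after its value was seen, the protease ADAMTS1 at 1.91. The lower ones were LHCGR, INSL3 at -2.36 ± 0.23, and SCARB1, the receptor for high-density lipoprotein, at -1.84, the last named after its value was seen. The lists share some genes, so their counts do not add up.

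**Figure D5:**
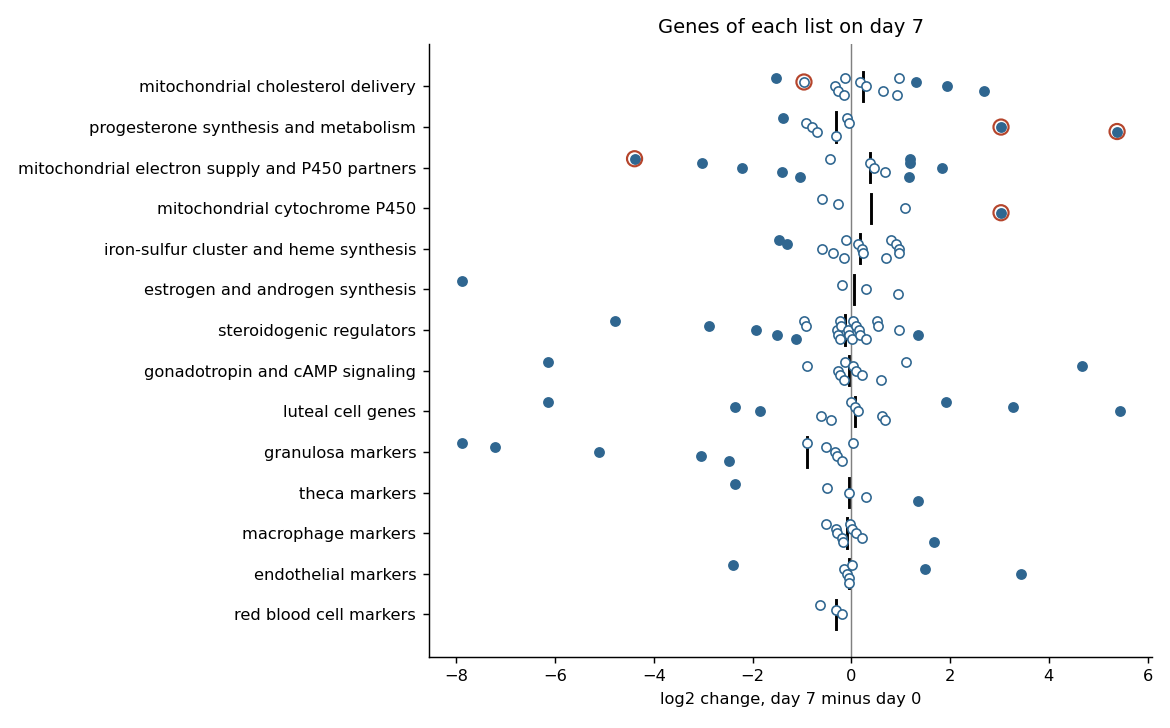
The log2 change from day 0 to day 7 (horizontal axis) is plotted for each measured gene of 14 lists (rows), with filled points for genes called, open points for those not called, a ring around the 4 members and a bar at each list's median. The medians of the 9 pathway lists lie between -0.31 and 0.40, with single genes far from them in most lists, and that of the granulosa markers at -0.90.

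Theca cells, which also hold CYP11A1 and HSD3B1, were checked with 8 markers, 5 of them measured. On day 7 1 was higher (TCF21, by 1.34 ± 0.30) and 1 lower (INSL3), with a median of -0.05, and on day 1 1 was lower. GLI1, at -0.50 ± 0.19, lay under the lower quartile on all arrays of every day. Day 0 arrays had a summed level of 9.90 to 10.29, day 1 arrays 10.32 to 10.45, day 2 arrays 10.60 to 10.88, day 4 arrays 9.93 to 10.28 and day 7 arrays 9.70 to 9.75. This sum was carried by 1 gene, NR2F2, a nuclear receptor named after its values were seen, with means of 9.50 on day 0, 10.64 on day 2 and 9.45 on day 7. NR2F2 rose by 1.14 ± 0.14 on day 2, while INSL3 fell by 2.06 ± 0.23 on that day and CYP17A1, GLI1 and TCF21 differed by 0.11, 0.20 and 0.08, not called. The day mean of CYP11A1 was also highest on day 2, not past the test against other cultured days. The part of theca cells in the changes of the enzymes was not tested.

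Other cell types were checked in the same way. Of 10 measured macrophage markers (13 listed), 1 was higher on day 7 (CD14, by 1.67 ± 0.22, with 0.14 in its other probe set) and 0 on day 1, with a median of -0.09 on day 7 and sums of 7.78 to 8.29. ITGAM, MRC1 and AIF1 differed by -0.52, -0.31 and -0.30. Of 8 measured endothelial markers (9 listed) 2 were higher and 1 lower on day 7 (ERG by 3.43 ± 0.36, PECAM1 by 1.49 ± 0.21, TIE1 by -2.40 ± 0.22), 2 were higher on day 1, and KDR stood at -0.15, with sums of 8.77 to 9.38. Of 3 red blood cell markers (7 listed) 0 passed on either day, with HBB, ALAS2 and AHSP at -0.31, -0.63 and -0.19 and sums of 8.55 to 9.26. Of the granulosa markers 1 was higher and 6 lower on day 1 and 5 were lower on day 7 (median -0.90). Among these 5 were INHA by -7.21 ± 0.35, FST by -5.11 ± 0.21 and INHBB by -3.05 ± 0.45, with -0.05 in its other probe set.

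The genes whose pattern was most like that of each member were found by Pearson correlation over the 15 arrays, among the 1974 named genes that the F test called with a range of day means of at least 1. None of the members was among the 3 nearest to another member, and STAR, which the F test did not call, could not be. Arrays of the same day share their place in the course, so the values only describe likeness. Most like FDXR were HSD17B1 (r = 0.99), INTS6L and ISCA2 (both 0.98), and ISCA2 is thus both in the iron-sulfur list and near FDXR in shape. INTS6L had a day 7 change of -3.20.

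Most like HSD3B1 were PDZK1IP1 and SHAS2 (both r = 0.97) and RND2 (0.96). The day means of PDZK1IP1 were 4.77, 5.65, 8.95, 8.81 and 9.97 on days 0, 1, 2, 4 and 7, with the same flat stretch between days 2 and 4 as HSD3B1. Most like CYP11A1 were YPEL3 (0.91), MITF (0.90) and FBXO32 (0.89), a ubiquitin ligase subunit that rose by 2.71 on day 7. MITF, a transcription factor of the pigment cell lineage, had day means of 7.38, 8.30, 9.39, 8.25 and 8.48. Like CYP11A1 it had its highest day mean on day 2, though the cultured days of CYP11A1 were not told apart over all arrays. The genes nearest to STAR were DLL4 (0.88), C7 (0.85) and B4GALT1 (0.84), all with their highest day mean on day 0.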

How the data were processed

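The deposited values are log2 intensities per probe set, summarized by the authors with RMA (robust multi-array average), per the submitters' processing notes, and the log2 scale was read from the values. RMA brings arrays to a common distribution and compresses changes near background. Control probe sets (124 of 24123) were left out. Of the 23999 tested, 10069 had 1 symbol in the array annotation, 198 several and 13732 none, and only the first kind was named. Genome positions were not used.

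With limma 3.58.1 (R 4.3.3), day was modelled as a factor over the 15 arrays (lmFit, eBayes, Benjamini-Hochberg over all probe sets tested), a method tested on simulated data. Members, lists and tests were chosen with earlier results of these data known. The genes named were the members, up to 4 per list by size of change on day 7, 5 fixed by name (NR5A1, FDX1, CYP17A1, POR and HSD17B1), and the 3 most like each member. Others are marked as named after their values were seen. Alternatives were other normalizations, a filter on dim probe sets, other variance settings, a replicate block, other probe sets, no minimum change and fewer arrays.

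Deviations from the day means of arrays with the same replicate number correlated above 0.1 for every pair in 7 of 8 comparisons, and at 0.0609 to 0.333 in day 1 against day 0. The labels do not say what the numbers share, and blocked values are given where they change a call or a count by over 1.5 times.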

Additional observations from a re-analysis of the deposited data

How the results depend on the processing

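Over the alternatives, 793 of 824 values for the members and 127 of 129 for their differences kept their side of the threshold, and 0 called values reversed. The 793 include 8 values, called under neither setting, that changed sign. With the dimmest 40% of probe sets left out STAR was not tested. Stronger for STAR were the mean of its probe sets (-1.37, -1.47 and -1.54 on days 1, 4 and 7) and, chosen after seeing the data, its second probe set (-2.00, -2.19 and -2.12), and without a minimum change -0.96 on day 7 passed. Leaving out arrays gave STAR changes on days 1, 2, 4 and 7 from -1.08 to -0.45, -1.01 to -0.38, -1.09 to -0.46 and -1.29 to -0.61. Weaker were CYP11A1 on day 1 in the 6 arrays alone (2.31) and on day 4 after a second quantile normalization (1.86) or cyclic loess (1.74), and FDXR from day 1 to 7 in its second probe set (-0.91). Leaving out arrays gave CYP11A1 changes on days 1 and 4 from 1.18 to 2.86 and 1.61 to 2.66, and 0.63 to 2.13 from day 1 to 2 and 0.17 to 1.67 from day 1 to 7, and CYP11A1 minus HSD3B1 -1.97 to -1.02. Without a minimum change 6020, 6248, 7360 and 7514 probe sets were called against day 0 on days 1, 2, 4 and 7, 1461 from day 1 to 2, 1002 from day 2 to 4 and 4524 from day 1 to 7. The 6 arrays alone gave 371 from day 2 to 4, and by limma 0 from day 4 to 7 (1240 at an unadjusted p under 0.05), against 14 over all arrays, 4 without dim probe sets and 41 with the replicate block. Leaving out arrays gave 451 to 1321 from day 1 to 2 and 4 to 55 from day 4 to 7. The replicate block changed no call of a member or pair. For 51 other genes, 48 of 1260 values on day 7 changed their side of the threshold and 0 called values reversed. Among the rest, 4 values called under neither setting changed sign. The cause of these differences was not tested. Low signal limits STAR.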
